A study of Homo sapiens with 18 samples.

Results

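The HOX genes were examined in SH-SY5Y, a human neuroblastoma cell line, after differentiation with all-trans retinoic acid (ATRA). Members were all protein-coding genes whose symbol was HOXA, HOXB, HOXC or HOXD followed by a number, which gave 39 of the 58735 genes counted and 39 of the 19951 protein-coding ones. Every library came from wild-type cells kept for 7 days in 10 µM ATRA with 2% serum and then exposed for 15 min to a ligand or to water. The groups, of 3 libraries each, were Morphine (193 nM), Metamorphine (169 nM), TRV130 (200 nM), Beta-endorphin (200 nM) and Naloxone (200 nM), with water as Control. Morphine, TRV130 and beta-endorphin activate opioid receptors, and naloxone blocks them. Each library name ends in a code, called A (7 libraries), B (6 libraries) and C (5 libraries) here. The labels do not say what the code stands for. TRV130 had 2 libraries in code A, 1 in code B and 0 in code C, and every other group had 1 library in each code. Cells without ATRA are not analysed here, so the levels below describe the ATRA-treated state and hold no test of ATRA. The cells are a single line, and separate cultures are not stated for the libraries of a group. The p-values therefore speak of the spread among these libraries, which may be technical.

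HOX genes encode homeodomain transcription factors that give cells their position along the head-to-tail axis. In mammals they lie in 4 clusters on different chromosomes, and genes with the same number in different clusters, called paralogues, descend from a common ancestor gene. Low numbers mark anterior and high numbers posterior positions, and retinoic acid, acting through nuclear receptors bound near the clusters, is a classical inducer of HOX genes that switches on the low-numbered end first. Polycomb proteins keep unused clusters silent, and PBX and MEIS proteins bind DNA together with HOX proteins.

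On GRCh38, the 11 HOXA genes spanned 107114 bases of the minus strand of chromosome 7 (27092993 to 27200106), and the 10 HOXB genes spanned 200653 bases of the minus strand of chromosome 17 (48528526 to 48729178). The 9 HOXC genes spanned 117266 bases of the plus strand of chromosome 12 (53938765 to 54056030), and the 9 HOXD genes spanned 98017 bases of the plus strand of chromosome 2 (176092891 to 176190907). The sequences before 4 HOX start sites are shown because HOXD8, HOXD11 and HOXD13 had the largest log2 fold changes of code C against A among the HOX genes that passed, whereas HOXB1, a hindbrain gene and a textbook retinoic acid target, was almost without reads. They are RefSeq sequences of GRCh38.p14, 5′ to 3′ on the gene's strand, ending at the base before the start site or before an annotated exon.

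HOXD8 (chr2:176129455-176129693, plus strand): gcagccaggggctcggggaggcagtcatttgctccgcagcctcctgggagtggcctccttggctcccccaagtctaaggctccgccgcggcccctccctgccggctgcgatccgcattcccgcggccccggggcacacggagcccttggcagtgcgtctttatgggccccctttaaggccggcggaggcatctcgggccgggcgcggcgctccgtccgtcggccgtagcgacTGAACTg
HOXD11 (chr2:176107030-176107279, plus strand): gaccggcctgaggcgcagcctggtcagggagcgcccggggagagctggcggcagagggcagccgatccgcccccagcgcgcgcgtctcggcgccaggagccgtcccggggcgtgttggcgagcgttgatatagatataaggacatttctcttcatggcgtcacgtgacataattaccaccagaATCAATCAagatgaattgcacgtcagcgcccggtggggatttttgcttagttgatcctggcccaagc
HOXD13 (chr2:176092471-176092720, plus strand): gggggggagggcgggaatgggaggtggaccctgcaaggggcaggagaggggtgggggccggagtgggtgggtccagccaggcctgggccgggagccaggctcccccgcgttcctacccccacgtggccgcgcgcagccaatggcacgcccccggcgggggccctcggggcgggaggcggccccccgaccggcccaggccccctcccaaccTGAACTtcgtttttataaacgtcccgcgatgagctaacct
HOXB1 (chr17:48531012-48531261, minus strand): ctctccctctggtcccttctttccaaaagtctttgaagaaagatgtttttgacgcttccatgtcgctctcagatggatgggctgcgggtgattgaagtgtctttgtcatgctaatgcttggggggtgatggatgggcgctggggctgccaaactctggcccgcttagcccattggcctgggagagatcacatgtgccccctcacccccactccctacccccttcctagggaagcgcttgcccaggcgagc

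Capitals mark TGAACT, the reverse of AGTTCA, in HOXD8 and HOXD13, and a match to TGATTNAT on the reverse strand in HOXD11. AGTTCA and AGGTCA are hexamers of which retinoic acid receptor elements are built, and TGATTNAT is a core of sites bound by PBX and HOX proteins together. Windows of 300 bases, 250 before and 50 after the start, were held for 20 of the 39 members, 27 windows in all. HOXC4 and HOXC5 have the same window, which is counted for each gene, and some genes, such as HOXA3, have several. AGTTCA, on either strand, was in 6 of these 27 windows and in 10.4% of the 35116 windows of all genes. AGGTCA was in 0 of the 27 HOX windows and in 13.8% of all windows, and TGATTNAT was in 2 of the 27 and in 2.82% of all windows. The printed stretches held 25 CpG pairs for HOXD8, 23 for HOXD11, 21 for HOXD13 and 7 for HOXB1. A match describes the letters alone, and no binding was measured. Variants of these patterns were not searched, so an unmarked stretch, such as that of HOXB1, may still hold a site.

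The HOXC and HOXD clusters were transcribed and the HOXA and HOXB clusters were nearly silent. The 18 libraries together held 65678 reads in the 9 HOXC genes and 115262 in the 9 HOXD genes, against 120 reads in the 11 HOXA and 176 in the 10 HOXB genes. Summed over a cluster, HOXC had 138.7 ± 21.9 CPM (counts scaled to the effective library size) and HOXD had 242.9 ± 36.4 CPM (SD, n = 18 libraries). Divided by exon length, HOXD held 65.6% ± 2.17 of the HOX signal (range 61.0% to 69.8%) and HOXC held 34.2% ± 1.99 (range 30.1% to 37.3%; SD, n = 18). HOXA held 0.0680% and HOXB 0.0917% on average. Counting error allows each gene with 0 reads in a library up to 3 counts there. In cultures, fewer cells using a gene and less RNA per cell cannot be told apart.

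**Figure D1:**
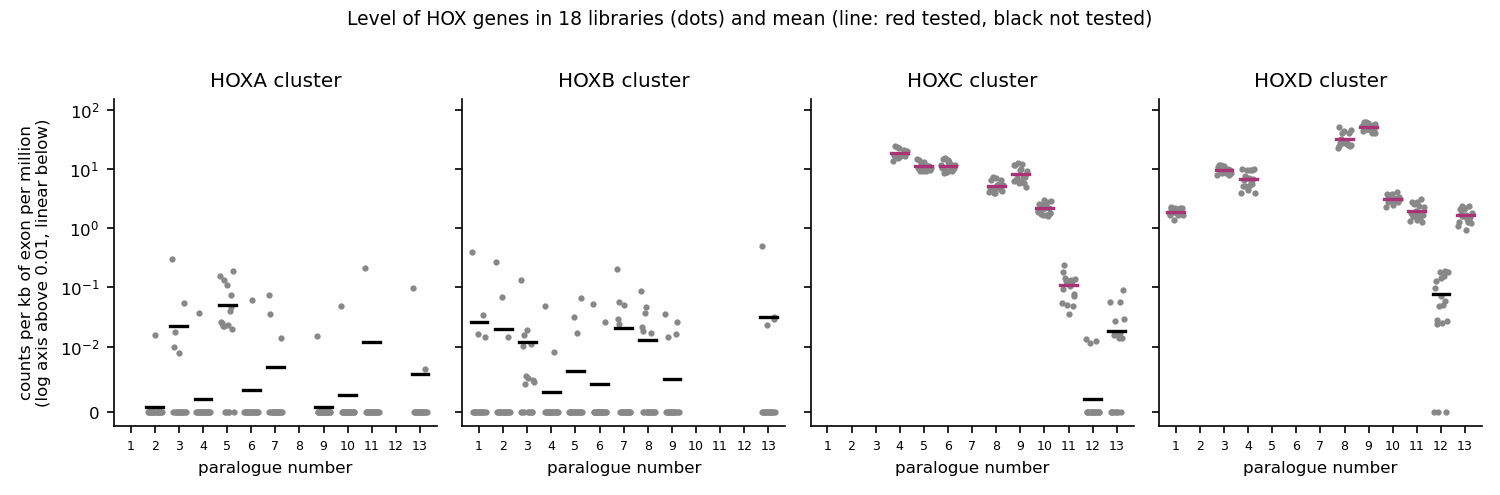
Level of HOX genes, by cluster (panels) and paralogue number (x axis), in CPM per kb of exon (y axis, logarithmic above 0.01 and linear below). Dots are the 18 libraries and lines their means, red for the 15 tested genes and black for untested ones; the tested genes are all in HOXC and HOXD, from HOXC4 to HOXC11 and from HOXD1 to HOXD13, with the peak at HOXD9 (50.8).

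Within HOXD the level per length peaked in the centre of the cluster. HOXD9, a central gene that helps pattern the lower trunk and limbs, had 50.8 ± 6.82 CPM per kb of exon, above 96.5% of protein-coding genes, and its neighbour HOXD8 had 31.8 ± 8.60 (SD, n = 18 each). HOXD3 had 9.62 and HOXD4 had 6.81 on the anterior side, and HOXD1 at the anterior end had 1.90. Levels on the posterior side were 3.15 for HOXD10, 1.95 for HOXD11 and 1.65 for HOXD13, a gene that patterns digits. HOXD12 had 49 reads in all (0 to 7 per library, present in 15 libraries) and was the 1 HOXD gene under the count filter.

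Within HOXC the level was highest at the anterior end and lowest at the posterior end. HOXC4, the most anterior HOXC gene, had 18.3 ± 3.01 CPM per kb of exon (SD, n = 18), HOXC6 had 11.2, HOXC5 had 11.1, HOXC9 had 8.21, HOXC8 had 5.19 and HOXC10 had 2.15. HOXC11 had 0.112, and HOXC13, a gene of hair and nail, had 22 reads and HOXC12 had 3 in all libraries together. HOXC6, HOXC8 and HOXC9 are genes of the thoracic region.

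Not all steps in this order were larger than the spread between libraries. HOXD9 was above HOXD8, HOXD8 above HOXC4 and HOXC4 above HOXC6 in 18 of 18 libraries. HOXC6 was above HOXC5 in 10 of 18, HOXC9 above HOXD4 in 11, HOXD4 above HOXC8 in 11 and HOXD11 above HOXD1 in 9, so these neighbours did not differ beyond their spread. HOXC8 was above HOXD10, HOXD10 above HOXC10 and HOXD13 above HOXC11 in 18 of 18 libraries, and the ranges of HOXD13 and HOXC11 were the only ones of neighbouring ranks that did not overlap. The remaining steps held in 12 to 14 of the 18 libraries. Exons that genes share set a limit to this order. HOXD4 shared all but 19.5% of its exon length with AC009336.2, a protein-coding gene annotated on the same strand, and HOXD3 all but 25.9% with AC009336.2 and 3 antisense genes. HOXC5 shared all but 40.1% of its exon length and HOXD1 all but 41.9%. Divided by unshared exon length alone, HOXD9 was still the highest at 50.8, but HOXD3 (37.1) and HOXD4 (34.9) stood above HOXD8 (31.8), and HOXC5 (27.7) above HOXC4 (22.2). All reads of a gene stay in these values. If reads in shared exons were counted, genes with little unshared length are overstated.

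Summed over the 4 clusters, paralogue group 9 had the highest level, 59.0 CPM per kb of exon, followed by group 8 with 37.0 and group 4 with 25.1. Groups 6, 5 and 3 had 11.2, 11.2 and 9.66, and group 10 had 5.30. Groups 11, 1 and 13 had 2.07, 1.93 and 1.71. Group 12 had 0.0803, group 7 had 0.0274 and group 2 had 0.0206, and no gene of these 3 groups passed the count filter. Of the 13 paralogue groups, 10 had a tested gene, always in HOXC or HOXD. The order below group 9 depends on the length used, since shared exons weigh most on HOXD4, HOXD3 and HOXC5. By unshared exon length, HOXD4 had 34.9 and HOXC4 22.2 in group 4, and HOXD3 had 37.1 in group 3. In group 8, HOXD8 had 31.8 and HOXC8 5.19 by that length.

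The few HOXA and HOXB reads lay mostly in a single library. Control 1 (code A) held 183 of the 296 HOXA and HOXB reads, or 61.8%, and the other 17 libraries held between 0 and 22, with a median of 6. Control 1 had reads in 17 of the 21 genes, and the other libraries in 0 to 9 of them. The same library held 62.0% of the reads of the 3647 protein-coding genes whose median over libraries was 0, 20888 of 33679, against 276 to 3074 in each other library. The share of HOXA and HOXB reads in Control 1 was thus close to that of silent genes at large; the origin of these reads was not tested.

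**Figure D2:**
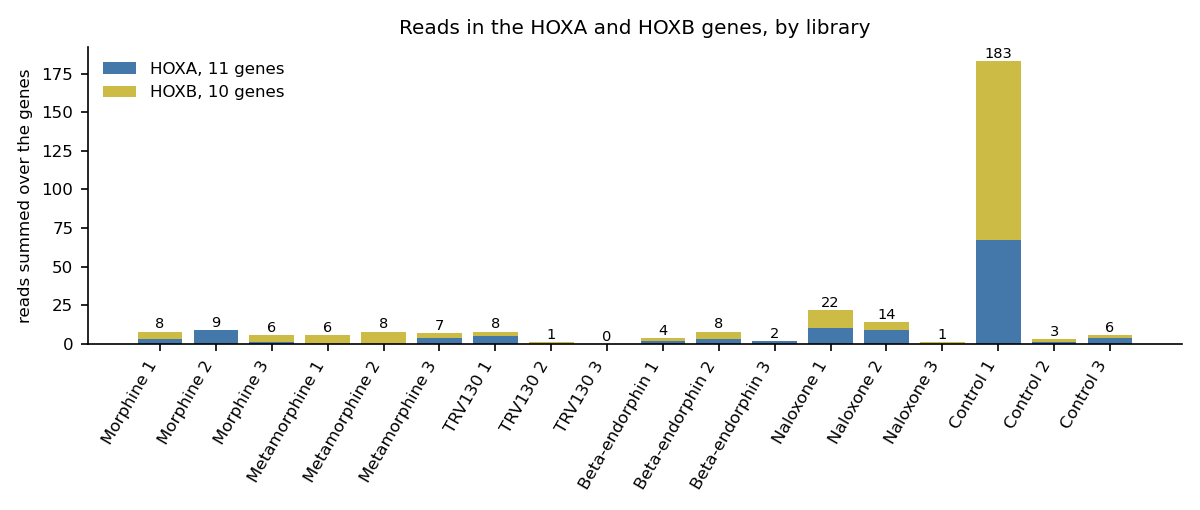
Reads summed over the 11 HOXA genes (blue) and the 10 HOXB genes (yellow) in each of the 18 libraries; bars start at 0 and the number on each bar is their sum. Control 1 holds 183 reads and no other library more than 22.

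HOXA5, a regulator of lung development in mouse, was the HOXA gene with the highest level per length and the 1 whose reads were spread most widely: 39 reads in 13 libraries, with 9 in Naloxone 2, 7 in Morphine 2 and 6 in Control 1. HOXA3, a gene of the pharyngeal arches, had 40 reads, of which 29 were in Control 1 and 7 in Naloxone 1. HOXB13, a gene of the prostate and hindgut, had 46 reads, 38 of them in Control 1 with 3, 3 and 2 in Naloxone 1, Naloxone 2 and Metamorphine 2. HOXB1 had 26 reads, 22 of them in Control 1, and HOXB3 had 37, 22 of them in Control 1. HOXB3 had reads in 10 of 18 libraries, and HOXA3, HOXB13 and HOXB1 were at 0 in most, with reads in 5, 4 and 4. HOXA11 (11 reads), HOXA10 (4) and HOXA9 (1) had reads in Control 1 alone. Control 1 also held 11 of the 12 reads of HOXA13, 4 of 7 of HOXA7, 14 of 19 of HOXB2, 4 of 5 of HOXB4, 3 of 5 of HOXB6 and 7 of 13 of HOXB7. HOXB8 had 12 reads and HOXB9 had 6, with at most 4 and 2 in a library. HOXA4 had 2 reads in Morphine 2, HOXA6 had 2 and HOXA2 had 1 in TRV130 1, and HOXB5 had 7 reads with 4 of them in Naloxone 1.

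Library totals ran between 21211449 and 33123855 counts. Of the 39 members, 15 were abundant enough to test (7 of 9 HOXC, 8 of 9 HOXD, 0 of 21 HOXA and HOXB), and 24 were not. Noradrenergic markers, among them DBH, GATA3 and HAND2, summed to between 3850 and 5345 CPM per library, and neuronal markers to between 1388 and 2238 CPM. Endothelial markers summed to at most 6.003 CPM (median 0.979) and immune markers to at most 12.9 CPM (median 6.62). Schwann and glial markers summed to at most 13.9 CPM (median 8.52) and epithelial markers to at most 21.1 CPM (median 9.02). Each of these highest sums was in a code A library. The 6 mesenchymal markers summed to between 261 and 360 CPM, but unevenly. TWIST1 averaged 172 CPM, PDGFRB 93.7 and COL3A1 50.3, whereas COL1A1 averaged 6.56, COL1A2 0.0896 and PRRX1 0.0239. In each code the mesenchymal sums were 315 to 344 CPM (C), 321 to 360 CPM (B) and 261 to 342 CPM (A). Of the 4 mesenchymal markers tested, 1 was higher and 3 were lower in code C than in code B, and likewise in code C than in code A. Of the 7 noradrenergic markers, 4 were higher and 1 lower in code C than in code B. For code C against A, 0 were higher and 1 lower, and for code B against A, 0 were higher and 4 lower. The summed CPM of these markers was nonetheless lowest in code C, with a median of 4062, against 4432 in code B and 4847 in code A. The ranges overlapped, with 3850 to 4548 CPM (C), 4155 to 4818 CPM (B) and 4497 to 5345 CPM (A). Of the 7 neuronal markers, 4 were higher and 0 lower in code C than in code B, 2 were higher and 1 lower in code C than in code A, and 0 were higher and 4 lower in code B than in code A (edgeR test). Over all tested genes, 26.9% were higher and 27.8% lower in code C than in code B. These shares were 16.1% and 17.1% for code C against A, and 11.5% and 15.5% for code B against A. Mitochondrial genes took 4.66% to 9.47% of counts in code C, 8.02% to 15.7% in code B and 6.15% to 17.7% in code A. The part of these markers and of the mitochondrial share in the differences between codes was not tested.

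Most of the transcribed HOX genes differed between library codes. In the fit with the treatment group as a further term, 12 of the 15 tested HOX genes differed among the 3 codes (edgeR quasi-likelihood test, adjusted p under 0.05), against 57.8% of all 23231 tested genes. Code C against code B had the most calls, 11 of 15 against a background of 54.8%, of which 10 were higher (background 26.9%) and 1, HOXD4, was lower (background 27.8%). Code C against code A had 8 of 15, all higher, against a background of 33.2% (16.1% higher, 17.1% lower). Code B against code A had 2 of 15, HOXD4 higher and HOXC9 lower, against a background of 26.9% (11.5% higher, 15.5% lower), a smaller share than among all genes. HOXC11, HOXD1 and HOXD3 passed in none of these comparisons. The median log2 fold change of the 15 genes was 0.42 for code C against code B and 0.34 for code C against code A, against -0.04 and -0.02 over all tested genes. The 3 comparisons share libraries in pairs and are not independent.

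**Figure D3:**
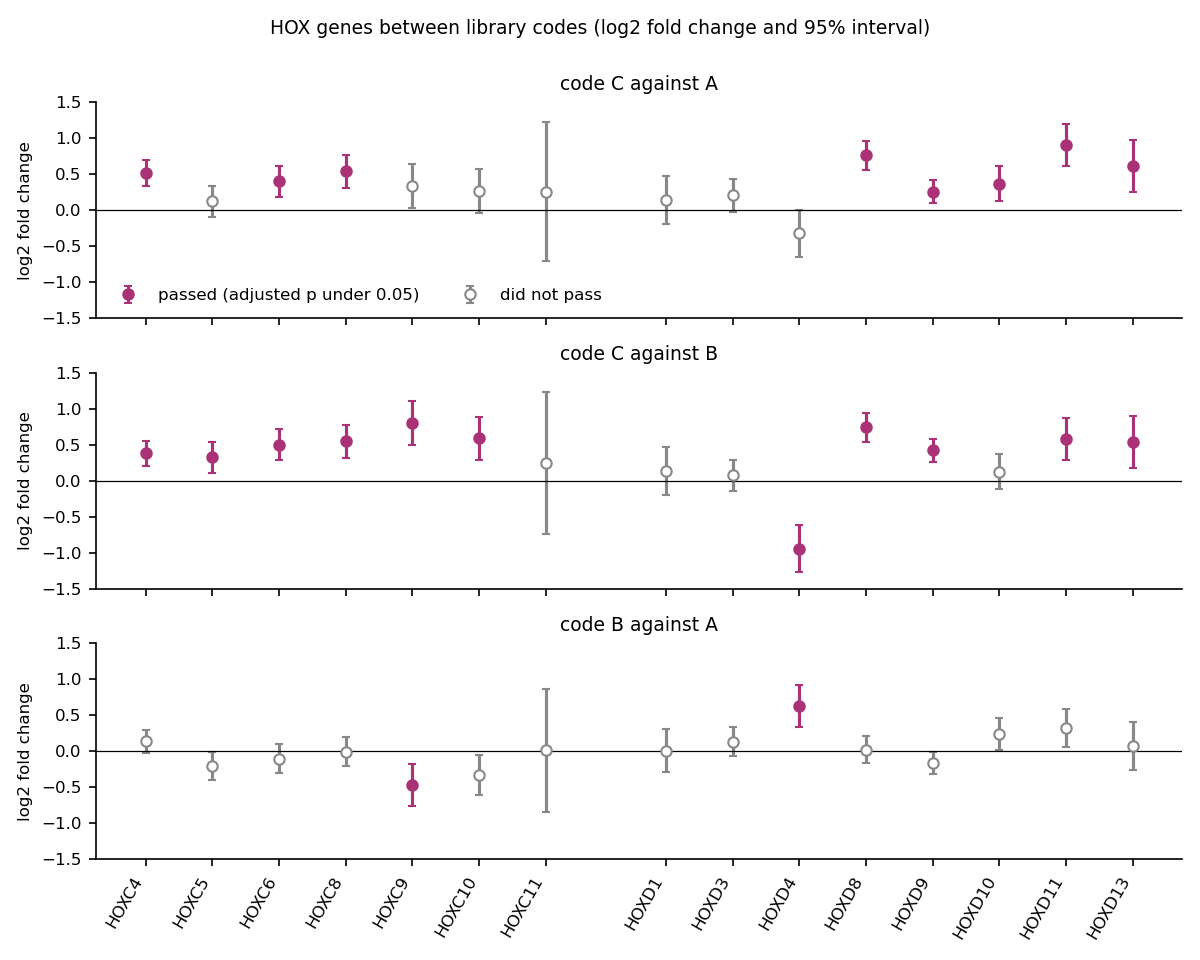
Log2 fold change (y axis) of the 15 tested HOX genes in order along the HOXC and HOXD clusters (x axis), with 95% intervals, for code C against A (top), C against B (middle) and B against A (bottom); filled points passed at an adjusted p under 0.05. In the upper panels 8 and 10 genes lie above 0 with filled points, and HOXD4 is the 1 filled point below 0 against code B.

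HOXD8 gave the clearest separation. Its levels in the 5 code C libraries were 106 CPM in Beta-endorphin 3, 109 in Morphine 3, 117 in Metamorphine 3, 122 in Naloxone 3 and 132 in Control 3. In code B they ran between 63.1 and 84.6 CPM (median 68.5, 6 libraries), and in code A between 58.4 and 78.0 CPM (median 72.2, 7 libraries). Every code C library was above every other library, and codes B and A overlapped. The log2 fold change was 0.74 (SE 0.097, adjusted p = 2.27e-05) for code C against B and 0.76 (SE 0.097, adjusted p = 0.000155) for code C against A.

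HOXD9 and HOXC4 separated in the same way. HOXD9 had 105, 118, 110, 117 and 106 CPM in Beta-endorphin 3, Control 3, Metamorphine 3, Morphine 3 and Naloxone 3 of code C. It ran between 75.7 and 94.7 CPM in code B (median 82.3) and between 87.7 and 101 CPM in code A (median 92.6). The HOXD9 difference was 0.42 on the log2 scale for code C against B (SE 0.076) and 0.26 for code C against A (SE 0.076, adjusted p = 0.0168). The call against code A was lost without Control 1, Naloxone 1 and Naloxone 2 together (adjusted p = 0.0562). HOXC4 averaged 61.3 ± 4.39 CPM in code C (n = 5), 47.6 ± 2.28 CPM in code B (n = 6) and 43.6 ± 3.51 CPM in code A (SD, n = 7). For HOXC4 too, the code C libraries (55.8 to 66.9 CPM) were above all others (36.7 to 50.4 CPM), with log2 fold changes of 0.38 against B (SE 0.085) and 0.51 against A (SE 0.085).

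HOXD11 and HOXD13, the posterior HOXD genes, were also higher in code C. HOXD11 averaged 5.67 ± 0.62 CPM in code C, 3.90 ± 0.64 CPM in code B and 3.17 ± 0.41 CPM in code A (SD, n = 5, 6 and 7). This was the largest log2 fold change of code C against A among HOX genes, 0.91 (SE 0.14, adjusted p = 0.00039), and 0.58 against B. HOXD13 averaged 4.90 ± 0.52 CPM in code C, 3.36 ± 0.73 CPM in code B and 3.14 ± 0.69 CPM in code A, with log2 fold changes of 0.61 against A and 0.54 against B. For both genes the code C libraries were above every code A library and overlapped code B. HOXD10 averaged 9.67 ± 1.00 CPM in code C and 7.37 ± 0.78 CPM in code A, a log2 fold change of 0.37 (SE 0.11, adjusted p = 0.0225), and missed the threshold against code B, with 8.77 ± 0.69 CPM there. The HOXD10 call was lost without Control 3 (adjusted p = 0.0522), Metamorphine 3 (0.0592) or Beta-endorphin 3 (0.0724).

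Among HOXC genes, HOXC8 averaged 12.4 ± 1.39 CPM in code C, 8.69 ± 0.82 CPM in code B and 8.86 ± 1.16 CPM in code A. HOXC6 averaged 47.8 ± 5.99 CPM in code C, 34.7 ± 2.29 CPM in code B and 38.4 ± 6.42 CPM in code A. Both passed for code C against B (log2 fold change 0.54 for HOXC8 and 0.50 for HOXC6) and against A (0.54 and 0.40). HOXC9, HOXC10 and HOXC5 were higher in code C than in code B, with log2 fold changes of 0.81, 0.59 and 0.33. Against code A they had 0.34, 0.27 and 0.12, with adjusted p of 0.0863, 0.158 and 0.376. Whether their differences from codes A and B differ from each other is given by code B against A: HOXC9 was lower in code B by 0.47 on the log2 scale (-0.47, SE 0.14, adjusted p = 0.0204), and HOXC10 (-0.32) and HOXC5 (-0.21) missed the threshold. HOXC9 averaged 10.1 ± 1.15 CPM in code B and 14.7 ± 4.28 CPM in code A, where it ran between 10.4 and 20.7 CPM. Its call did not hold without Control 1 (adjusted p = 0.0533), Control 2 (0.0641), Naloxone 2 (0.0514) or TRV130 3 (0.108), which leaves HOXD4 as the 1 call of code B against A.

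**Figure D4:**
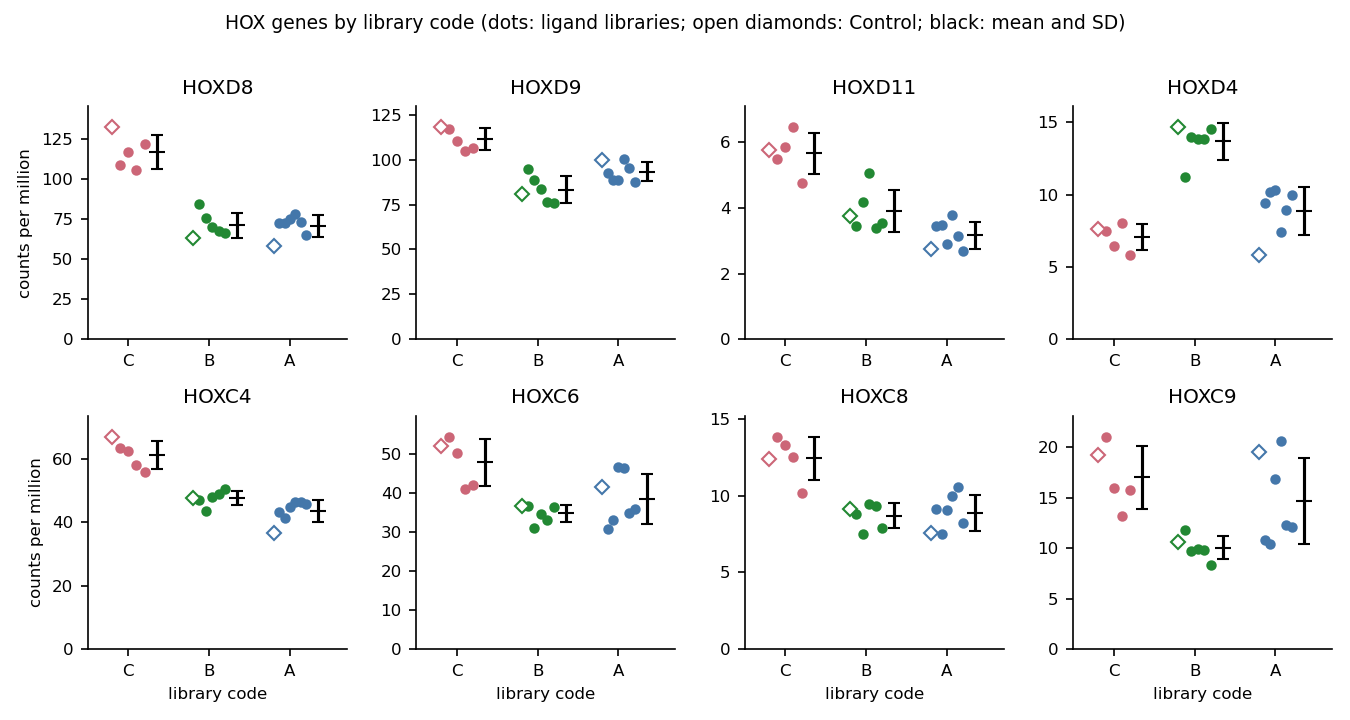
CPM (y axis, from 0) of 8 HOX genes in each library, by library code C (5 libraries), B (6) and A (7); dots are ligand libraries, open diamonds the Control library of each code, and black marks the mean and SD. HOXD8, HOXD9 and HOXC4 are above all other libraries in code C, and HOXD4 is above all others in code B.

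HOXD4 went the other way. It had 8.03, 7.61, 6.44, 7.47 and 5.83 CPM in Beta-endorphin 3, Control 3, Metamorphine 3, Morphine 3 and Naloxone 3 of code C. It ran between 11.2 and 14.7 CPM in code B (median 13.9) and between 5.82 and 10.3 CPM in code A (median 9.41). All code B libraries were above all others, and codes C and A overlapped. The log2 fold change was -0.95 (SE 0.15, adjusted p = 0.00011) for code C against B and 0.63 (SE 0.14, adjusted p = 0.00546) for code B against A; for code C against A it was -0.32 and missed the threshold (adjusted p = 0.121). HOXD4 is a hindbrain and neck gene with a retinoic acid response in mouse.

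Of the transcripts annotated around HOXD4, some were lower in code C than in code B, as HOXD4 was, and others were not; those named here were chosen after their values were seen. AC009336.2, which overlaps HOXD4 and HOXD3 on the same strand, averaged 23.9 ± 3.58 CPM in code C, 35.9 ± 2.64 CPM in code B and 26.1 ± 5.05 CPM in code A, and was lower in code C than B by 0.59 on the log2 scale (-0.59, SE 0.15, adjusted p = 0.00282). AC009336.1, antisense to HOXD3, averaged 1.35 ± 0.21 CPM in code C, 2.84 ± 0.37 CPM in code B and 1.42 ± 0.46 CPM in code A, a log2 fold change of -1.09 for code C against B. HAGLROS had a log2 fold change of -1.90 and MIR10B, the gene of the microRNA miR-10b beside HOXD4, of -3.13, the MIR10B value resting on 0 to 4 reads per library in code C and 7 to 16 in code B. HAGLR, an antisense RNA that overlaps HOXD3, was higher in code C than in code B (log2 fold change 0.23, SE 0.094, adjusted p = 0.0475 by edgeR). HOXD3, which shares most of its exon length with AC009336.2, had 36.3 ± 5.18 CPM in code C, 34.7 ± 2.61 CPM in code B and 32.1 ± 4.29 CPM in code A and passed in none of the comparisons. Because the libraries carry no strand, reads of overlapping genes cannot be told apart.

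Of 27 noncoding and other genes inside the clusters, 9 were tested. In code C against B, 3 of these were higher and 3 lower (background 26.9% higher, 27.8% lower). The higher ones were the antisense RNAs HOXC-AS1 (log2 fold change 0.82), HOXD-AS2 (0.54) and HAGLR, and the lower ones were MIR10B, HAGLROS and MIR615 (-1.91). HOXD-AS2 runs antisense across HOXD8 and HOXD9 and overlaps an exon of HOXD3, and its 22.3 ± 3.65 CPM in code C stood against 15.5 ± 1.53 CPM in code B. Of 11 genes that flank the clusters, 7 were tested. In code C against B, 4 of these were higher and 1 lower, against the same background. MTX2, a mitochondrial import gene beside HOXD1, had a log2 fold change of 1.08, larger than that of any HOX gene, and HIBADH, beyond the HOXA cluster, had 0.74. CALCOCO1, beyond HOXC13, was the lower one (-0.77).

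Genes of retinoic acid handling split in direction between codes, and 4 of the 21 on the list averaged under 1 CPM, ALDH1A1 with 0 reads in every library. CYP26B1 and CYP26A1, which break down retinoic acid and are induced by it, averaged 1545 and 351 CPM, and RARB, a receptor gene that retinoic acid induces, averaged 89.4 CPM. Of 19 tested genes of this list, 4 were higher and 7 lower in code C than in code B, a share near the 54.8% of all tested genes. CRABP1 and CRABP2, which carry retinoic acid in the cell, had log2 fold changes of 1.03 and 0.75, and RARB had 0.36. Among the lower ones were the retinol transporter gene STRA6 (-1.02), CYP26B1 (-0.98) and RARA (-0.40). For code C against A, 4 of the 19 were higher and 2 lower (background 16.1% higher, 17.1% lower). For code B against A, 6 were higher and 2 lower (background 11.5% higher, 15.5% lower). RARB averaged 118.4 ± 13.9 CPM in code C, 89.9 ± 8.66 CPM in code B and 68.3 ± 15.6 CPM in code A.

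The cofactor genes were expressed, all but PKNOX2 above 1 CPM. MEIS2 averaged 290.5 CPM, MEIS3 209.4, PBX3 101.5, PBX2 96.6 and MEIS1 50.3, as totals per gene without division by length. For code C against B, 1 of 9 cofactor genes was higher (PBX3, log2 fold change 0.49) and 1 lower (MEIS1, -0.25). Among all tested genes, 26.9% were higher and 27.8% lower there. For code C against A, 3 of 9 cofactor genes were higher, PBX3 (0.38), MEIS2 (0.37) and PKNOX1 (0.27), and 0 lower (background 16.1% higher, 17.1% lower).

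Of 23 Polycomb and Trithorax genes, all tested, 7 were higher and 8 lower in code C than in code B. The background over all tested genes was 26.9% higher and 27.8% lower. EED (0.78), RNF2 (0.77), BMI1 (0.62) and SUZ12 (0.57), Polycomb genes, were among the higher ones. KMT2B (-1.13) and KMT2A (-1.04), which encode histone H3 lysine methyltransferases of the Trithorax group, were among the lower ones. So were KDM6B (-0.78), a demethylase that removes the Polycomb mark, and PHC3 (-0.72), itself a Polycomb gene. The genes named here are only part of the 15 that passed and were chosen after their values were seen. A split between Polycomb and Trithorax genes cannot be read from them and was not tested. The median log2 fold change of all 23 genes was -0.02 for code C against B and -0.06 for code C against A. Of 13 CDX and anterior patterning genes, 5 were tested and 0 passed between any codes by the edgeR test, with 1, OTX1 for code C against A (-0.80), at an unadjusted p under 0.05. OTX1 was low, with 0.726 CPM on average and 4 to 40 reads per library. CDX1, a caudal homeobox gene that activates HOX genes, averaged 0.925 CPM.

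No HOX gene passed between a ligand and Control after 15 min. In each of the 5 comparisons, and for the mean of the 5 ligands against Control, 0 of the 15 tested HOX genes passed (edgeR quasi-likelihood test, background 0% of 23231 genes). In that fit, which has no term for library code, 0 of the 15 had an unadjusted p under 0.05. DESeq2 also called 0 of them. With no low-count filter, 9 HOXA and HOXB genes passed for the mean of the 5 ligands, all lower, against a background of 7.02% of genes (6.96% lower), and Control 1 held 53.8% to 100% of each one's reads. Over all genes, edgeR gave 430 to 2654 genes with an unadjusted p under 0.05 per comparison without a code term. With the library code as a block it gave 1037 (TRV130) to 6888 (mean of the 5 ligands), and 0 HOX genes passed. The unadjusted p of the HOX genes in that block fit are not given here. DESeq2 called 3 genes in Beta-endorphin, 1 in TRV130, 1 in Naloxone and 0 in the others. At the median over HOX genes, the 95% interval of a ligand's log2 fold change extended 0.54 to each side in the edgeR fit without a code term. The 5 ligand comparisons share the same Control libraries.

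**Figure D5:**
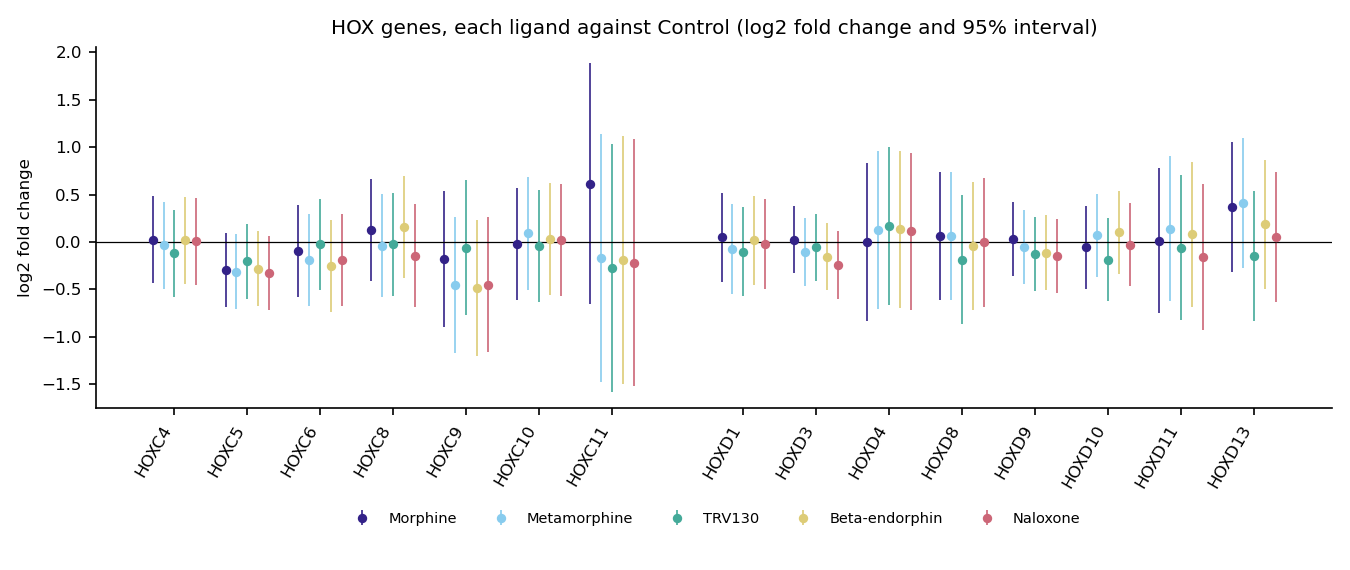
Log2 fold change (y axis) of the 15 tested HOX genes (x axis, in cluster order) in each of the 5 ligand groups against Control, with 95% intervals; each group has 3 libraries. Every interval includes 0, and the 5 points of HOXC5 lie between -0.33 and -0.20.

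HOXC5 had the smallest p in every ligand comparison. It averaged 19.2 ± 3.38 CPM in Morphine, 19.0 ± 3.302 CPM in Metamorphine, 20.5 ± 3.395 CPM in TRV130, 19.4 ± 0.78 CPM in Beta-endorphin and 18.8 ± 1.495 CPM in Naloxone, against 23.6 ± 4.03 CPM in Control (SD, n = 3 each). The 3 Control libraries had 26.1 (code A), 18.9 (B) and 25.7 CPM (C), and the groups overlapped. For the mean of the 5 ligands the log2 fold change of HOXC5 was -0.28 (SE 0.14, unadjusted p = 0.0606, adjusted p = 0.443 by edgeR). Within code A 6 of 6 ligand libraries were below the Control library, within code B 4 of 5 and within code C 4 of 4.

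HOXC9, next in order of p for Metamorphine and Beta-endorphin and the third for Naloxone, had log2 fold changes of -0.46, -0.49 and -0.45 against Control. It averaged 12.03 ± 3.42 CPM in Metamorphine, 11.7 ± 1.73 CPM in Beta-endorphin and 12.1 ± 3.71 CPM in Naloxone, against 16.5 ± 5.04 CPM in Control. HOXD13 averaged 4.29 ± 0.94 CPM in Morphine and 4.41 ± 0.77 CPM in Metamorphine, against 3.31 ± 1.19 CPM in Control, with log2 fold changes of 0.37 and 0.41. HOXC11 in Morphine had 0.61 with a wide interval (-0.66 to 1.88), HOXC6 in Beta-endorphin had -0.25, and HOXD3 in Naloxone had -0.24. TRV130 had -0.19 for HOXD10 and -0.13 for HOXD9. None of these values passed, with adjusted p between 0.563 and 1.00 by edgeR. TRV130 has no code C library and Control has, and HOXD9 and HOXD10 were higher in code C than in code A. This fit has no code term, so ligand and code cannot be told apart in the TRV130 values.

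The values of HOXD9 and HOXD8, the most abundant HOX genes per length, overlapped between every ligand group and Control. HOXD9 averaged 101.5 ± 13.6 CPM in Morphine, 95.8 ± 12.4 CPM in Metamorphine, 91.0 ± 8.58 CPM in TRV130, 92.1 ± 14.4 CPM in Beta-endorphin and 89.9 ± 15.5 CPM in Naloxone, against 99.5 ± 18.7 CPM in Control. HOXD8 averaged 88.4 ± 18.5 CPM in Morphine, 88.2 ± 24.7 CPM in Metamorphine, 74.2 ± 4.22 CPM in TRV130, 82.1 ± 20.6 CPM in Beta-endorphin and 84.3 ± 32.5 CPM in Naloxone, against 84.5 ± 41.2 CPM in Control. In each group but TRV130, which has no code C library, the highest HOXD8 library was the code C one. The 105 tested genes of the other lists gave 0 calls in every ligand comparison by the edgeR test, with 4 to 18 of them per comparison at an unadjusted p under 0.05.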

How the data were processed

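Per the labels' protocols, total RNA was extracted with TRIzol, treated with DNase I and made into libraries without strand information, read as 150 bp pairs on an Illumina NovaSeq instrument. HISAT2, featureCounts, DESeq2 and FastQC served with GRCh38 (hg38), per the submitters' processing notes. Their settings and the annotation were not given in the sources used here. What was deposited is a table with the authors' raw counts per Ensembl gene. All 58735 IDs were found in GENCODE 29, which gave symbols, positions and merged exon lengths. How reads in exons shared by several genes were assigned is not stated, which touches HOXD4, HOXD3, HOXC5 and HOXD1 most.

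The test was that of edgeR 4.0.16 (R 4.3.3): filterByExpr with a minimum count of 10 (23231 genes), TMM scaling, robust quasi-likelihood fit on all 18 libraries, Benjamini-Hochberg over all tested genes, threshold 0.05. Ligands were compared with 1 mean per group, and codes with the group as a further term. A Control column whose header lacks a digit of its code was matched to the Control library of code A, and TRV130 codes with an extra leading digit were read without it. Levels are TMM-scaled CPM, divided by exon length where genes are compared. Alternatives were RLE scaling, no filter, DESeq2 1.42.0, other samples and terms, a block by replicate number or by code, and leaving out single libraries; unshared exon length, and the code block without Control 1, were chosen after seeing the data. Members, lists and the rule for named genes (the highest genes of each cluster, those that passed, otherwise the smallest p, those with their reads mainly in a library, and up to 4 genes of each other list) were chosen with earlier results of these data known. AC009336.1, AC009336.2 and further genes of the lists were named after their values were seen. A HOXA gene and some genes of the other lists are not reported here.

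Deviations from group means were correlated between each ligand library and the Control library of the same replicate number. For numbers 1, 2 and 3, Naloxone had 0.249, 0.726 and 0.702, and Beta-endorphin had 0.0996, 0.666 and 0.592. Metamorphine had -0.0501, 0.654 and 0.642, and Morphine had -0.258, 0.429 and 0.3855. In these groups equal numbers were also equal codes, so a pairing by number cannot be told apart from the code. TRV130, whose numbers 2 and 3 had other codes than Control, had 0.457, -0.534 and -0.177. On simulated counts, the Morphine comparison (22865 genes) found 28% of the genes changed 2-fold and 83% of those changed 4-fold, with 7 false calls, and code C against A (22763 genes) found 79% and 99%, with 7.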

Additional observations from a re-analysis of the deposited data

Results flagged for a closer look

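Among 45 sets of HOX gene and library code, 2 held a library far from the others, and chance flags about 1 in 20. HOXD4 in code B had 11.2 CPM in Morphine 2, against 13.8 to 14.7 CPM in the other 5 libraries. HOXC11 in code A had 0.787 CPM in Morphine 1, against 0.117 to 0.386 CPM in the other 6.

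For 5 of the 15 tested HOX genes, every ligand library lay on one side of the Control library in a code and on the other side in another code. The share of such genes among all tested genes was not computed, so this cannot be called particular to HOX genes. Each code has 1 Control library, and these differences were not tested. Median log2 differences of ligand libraries minus the Control library are given. HOXD4 had 0.73 in code A and -0.08 in code B. HOXD8 had 0.32 in code A, 0.14 in code B and -0.23 in code C, and both code A and code B stood against code C. HOXD3 had 0.22 in code A, -0.17 in code B and -0.32 in code C. HOXC4 had 0.30 in code A and -0.15 in code C, and HOXD10 had 0.32 in code A and -0.25 in code B. The code A library of Control is Control 1, which also held most HOXA and HOXB reads; its part in these differences was not tested.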

How the results depend on the processing

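Of the alternative values for counts of HOX calls, 244 stayed within 1.5 times the count given and 7 did not. For single genes, 954 kept their direction and their side of the threshold, 11 missed the threshold and 4 changed direction. Leaving out each library in turn gave 1 to 3 calls for code B against A, 7 to 10 for C against A, 11 for C against B, 10 to 12 for any difference among codes and 0 for every ligand comparison. Code B against A had 1 call in place of 2 without the TRV130 libraries and without Control 1, Naloxone 1 and Naloxone 2 together, and also when Control 1, Control 2, TRV130 3 or Naloxone 2 was left out; the call lost was HOXC9 (adjusted p 0.0514 to 0.159). HOXD10 lost its call for code C against A in 4 fits (adjusted p 0.0522 to 0.0736) and HOXD9 in 1, without those 3 libraries (0.0562). With no low-count filter the mean of the 5 ligands against Control had 9 calls, all lower and all HOXA or HOXB genes: HOXB1, HOXA3, HOXB13, HOXA11, HOXA13, HOXB2, HOXB7, HOXA7 and HOXB3. In that fit 7.02% of all 46594 genes passed, 3244 of the 3270 of them lower. Control 1 held between 4 and 38 reads of each of the 9 HOX genes called, or 53.8% to 100% of the gene's total. Directions reversed without a call for HOXC6 in the mean of the 5 ligands without Control 3 (0.0095, against -0.15; -0.26 to 0.0095 over the libraries left out), HOXC9 in Naloxone without those 3 libraries (0.11, against -0.45), and HOXD9 in TRV130 without Control 3 (0.019; -0.26 to 0.019 over the libraries left out) and with the code block and no Control 1 (0.0062), against -0.13; the cause was not tested. With a replicate block, by number or by code, 0 HOX genes passed against Control in every ligand comparison, so the block changed no call. By unshared exon length HOXD held 67.6% and HOXC 32.3% of the HOX signal. Depth limits the HOXA and HOXB genes, HOXC12, HOXC13 and HOXD12, where 3 counts are the floor of a library.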
